A study of Mus musculus with 9 samples.

Results

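The 34 genes described here encode enzymes of sterol and fatty acid synthesis and the proteins that control them, and they were followed by RNA-seq across birth in the mouse heart. They were chosen by gene symbol as members of these pathways, with no threshold on their values, and all 34 were found among the 48820 genes of the deposited table. The study profiled hearts at embryonic day 18.5 (E18.5d), postnatal day 1 (P1d) and postnatal day 7 (P7d), with 3 hearts at each stage labelled as biological replicates. The hearts of all 3 stages came from wild-type, untreated C57BL/6J mice labelled male, so the stages differed by age alone as far as the labels tell. Each value is an FPKM, a fragment count scaled to transcript length and to the size of the library, measured on total RNA of heart tissue, so fewer cells of a type and less RNA per cell cannot be told apart.

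Cholesterol is built from acetyl-CoA in a long series of steps. The mevalonate steps lead to farnesyl diphosphate, which is also the source of other isoprenoids, and squalene synthase commits it to sterols, which are then closed into a ring system, demethylated, isomerised and reduced. Fatty acids are built from the same acetyl-CoA, after ATP citrate lyase has released it in the cytosol and acetyl-CoA carboxylase has turned it into malonyl-CoA. Malonyl-CoA also blocks carnitine palmitoyltransferase, the gate through which heart muscle takes long-chain fatty acids into mitochondria. Many of these genes are targets of the SREBP transcription factors, which are held in the endoplasmic reticulum by Scap and Insig proteins while sterols are plentiful and are freed by cleavage when sterols fall.

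The markers of cardiomyocytes were abundant in all 9 hearts, with a summed level of 30500 to 39200 FPKM over 6 genes. Depth, read from the steps between low FPKM values, was 25500000 to 45000000 fragments per heart, and *Elovl6*, the lowest of the 34 genes, rested on an estimated 120 fragments or more in each heart. *Xist*, the RNA of the inactive X chromosome, stood above 1 FPKM in 2 E18.5d hearts, no P1d heart and 2 P7d hearts, which goes against their label as male. The Y chromosome genes *Ddx3y*, *Kdm5d*, *Uty* and *Eif2s3y* were at 0 FPKM in these hearts and at 9.74 FPKM or more in every other heart. By these genes the stages also differed in their mix of sexes, so age and sex cannot be fully told apart. Small amounts of other tissue were seen in some libraries. The airway gene *Scgb3a2* was at 53.2, 127 and 1 FPKM in the E18.5d hearts, in the order of their replicate numbers. It reached 179 FPKM in P1d replicate 1 and was at 0 FPKM in every P7d heart. The liver gene *Alb* was at 3.6, 0.64 and 5.86 FPKM at E18.5d and reached 15.9 FPKM in P1d replicate 2. At P7d *Alb* was at 0.38 FPKM or less. A list of 9 adipocyte genes summed to 6.21 to 7.87 FPKM at E18.5d, 28.8 to 30.8 at P1d and 35.6 to 40.8 at P7d. Most of it was *Cidea*. *Ucp1* was at 0 FPKM in every E18.5d heart, at 1.31 FPKM or less at P1d and at 5.77, 7.26 and 6.84 at P7d. *Plin1* did not exceed 0.19 FPKM at E18.5d and stood at 0.28 to 1.38 at P1d and 1.31 to 1.42 at P7d. *Pck1* did not exceed 0.16 FPKM at E18.5d and stood at 1.49 to 2.98 at P1d and 0.96 to 1.27 at P7d. *Adipoq* was at 0.42 FPKM or less at E18.5d, 1.91 to 3.09 at P1d and 0.86 to 1.01 at P7d. *Lep* did not exceed 0.05 FPKM. Every P7d heart thus held less *Adipoq* and *Pck1* than any P1d heart, and more *Cidea* and *Ucp1*. Proliferation genes (6 genes) summed to 296 to 313 FPKM at E18.5d, 67.6 to 94.1 at P1d and 128 to 145 at P7d. The part of these differences in the results that follow was not tested.

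Most of these genes were lower after birth than before it. At P1d compared with E18.5d, 22 of the 34 (64.7%) were lower and 4 (11.8%) were higher, while 27.6% and 18.4% of the 13618 genes tested were lower and higher (46.0% in either direction). At P7d compared with E18.5d, 26 (76.5%) were lower and 2 (5.88%) higher, against 36.9% and 12.5% of all tested genes (49.4% in either direction). Between P1d and P7d the change was smaller, with 9 lower (26.5%) and 2 higher (5.88%), against 28.6% and 15.5% of all tested genes (44.2% in either direction), and 23 genes did not pass the test. The calls are from limma on log2(FPKM + 1), with an adjusted p under 0.05. This scale understates the change of genes at low FPKM, and each stage's hearts serve in both of its comparisons. All hearts lay below those of E18.5d in 21 of the 34 genes at P1d and in 29 at P7d, against 32.3% and 45.6% of all tested genes, and above them in 5 and 2, against 22.1% and 16.9%. Of the 9 genes called lower and 2 called higher between P1d and P7d, *Acaca* had overlapping hearts. In all, 9 of the 34 genes lay lower and 2 higher without overlap, against 34.3% and 19.3%. A log2 change of at least 1 was reached by 4 genes called lower (*Idi1*, *Sqle*, *Stard4* and *Scd2*) and by *Scd4* at P1d, against 3.35% and 1.91% of all tested genes. By P7d it was reached by 5 called lower (*Idi1*, *Fdps*, *Sqle*, *Msmo1* and *Scd2*) and again by *Scd4*, against 2.81% and 1.96%. No gene of the 34 reached it between P1d and P7d, where 2.29% and 1.78% of all genes did.

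**Figure D1:**
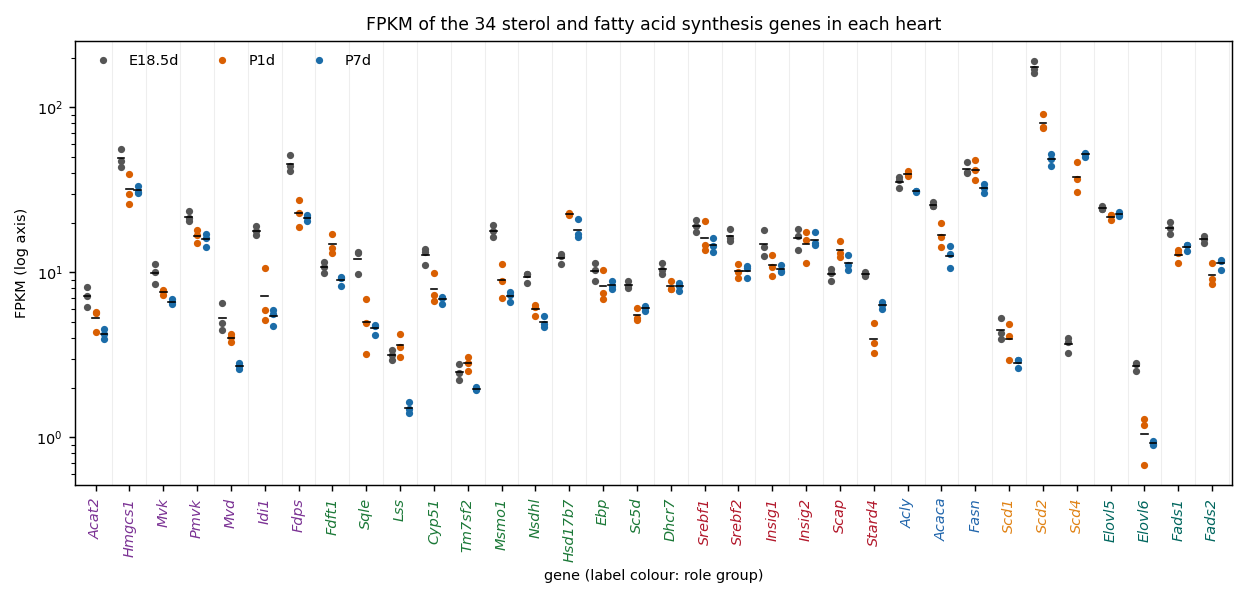
FPKM (log axis) of each of the 34 genes in each heart, with 3 points per stage and a short bar at the stage mean. Gene names are coloured by role: mevalonate steps purple, squalene to cholesterol green, SREBP control red, fatty acid synthesis blue, *Scd* desaturases orange, elongases and *Fads* genes teal. *Scd2* was the highest of the genes at E18.5d with a mean of 174 FPKM, and *Scd4* moved from 3.67 to 51.8 FPKM by P7d.

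The median log2 change of the 34 genes was -0.38 at P1d and -0.48 at P7d compared with E18.5d, where the median of all tested genes was -0.06 and -0.17. Between P1d and P7d both medians were closer together, at -0.15 and -0.09. Other scalings of the columns moved the median of all genes and the balance of its calls. Under median-of-ratios scaling the P7d calls against E18.5d split into 2905 up and 2848 down, in place of 1706 and 5025, and 19 of the 34 were still lower and 3 higher. The split became 3154 and 3112 for P1d against E18.5d, in place of 2505 and 3755, where 5 of the 34 were higher and 19 lower. For P7d against P1d it became 2986 and 2700, in place of 2112 and 3901, with 6 and 6 of the 34. Relative to the median of all genes, the median of the 34 at P7d compared with E18.5d was -0.31, and -0.30 to -0.32 under the other scalings.

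**Figure D2:**
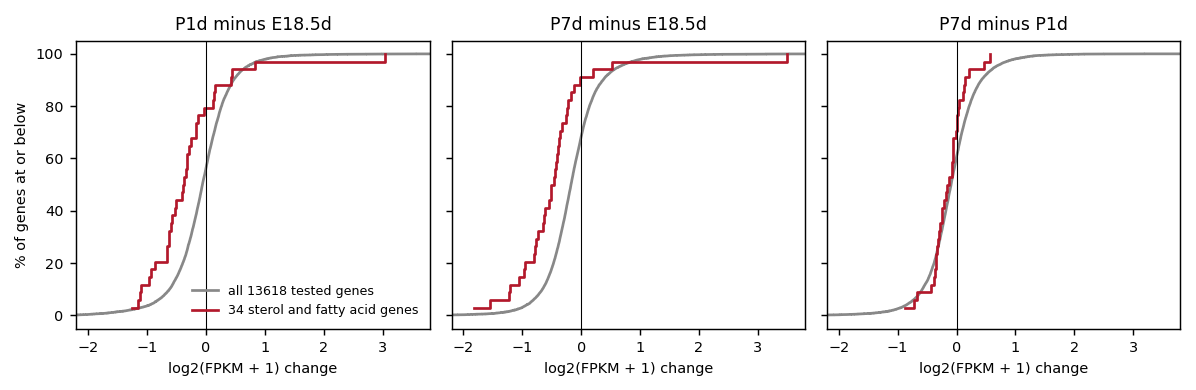
Cumulative share of genes (%, y axis) at or below a given log2(FPKM + 1) change (x axis) for the 34 genes (red) and all 13618 tested genes (grey), 1 panel per comparison. The red line lies to the left of the grey one in both comparisons with E18.5d, except for a few genes at the right that include *Scd4*, and near it for P7d minus P1d.

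Without the 4 hearts with *Xist* above 1 FPKM, E18.5d and P7d kept 1 heart each and P1d all 3, and the lone hearts had to be assumed to vary like the P1d hearts. All 26 genes called at P1d and all 28 called at P7d compared with E18.5d kept their direction in this fit, with medians of -0.53 and -0.66. Only 2 higher and 1 lower at P1d, and 1 higher and 1 lower at P7d, still passed the adjusted threshold. At an unadjusted p under 0.05, 2 were higher and 21 lower at P1d, and 2 higher and 19 lower at P7d. No gene passed limma's adjusted threshold between P1d and P7d without these hearts, 1 was higher and 5 were lower at an unadjusted p under 0.05, and all 11 called with all hearts kept their direction. With a covariate for *Xist* in place of leaving hearts out, 20 were lower and 3 higher at P1d and 25 lower and 2 higher at P7d compared with E18.5d.

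**Figure D3:**
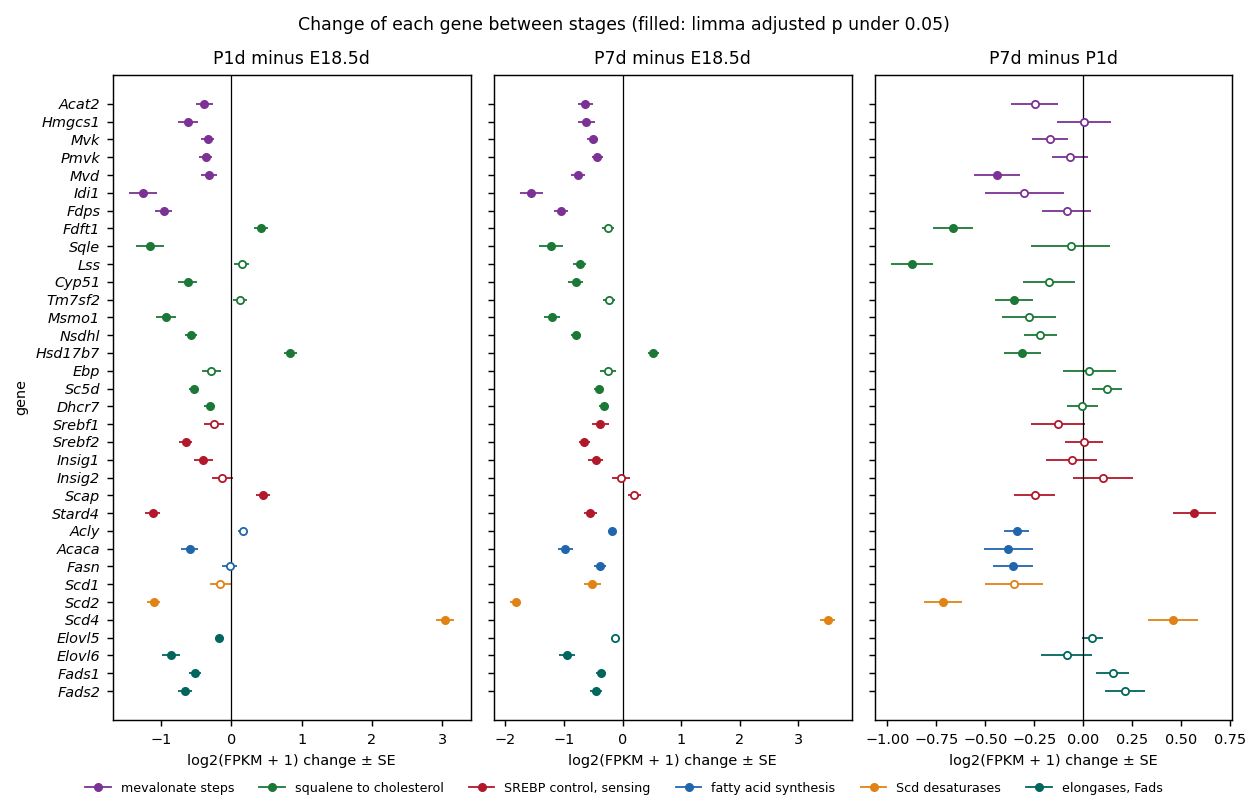
Change of each of the 34 genes on the log2(FPKM + 1) scale (point) with its standard error (bar) from limma, in 3 panels with different x axes. Points are coloured by role and filled where the adjusted p was under 0.05. Nearly all filled points lie left of 0 in the comparisons with E18.5d, and *Scd4* lies far to the right at 3.04 and 3.50.

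All 7 genes of the mevalonate steps were lower at P1d and at P7d than at E18.5d, and their summed level went from 156 ± 17.6 FPKM (SD, n = 3) before birth to 95.5 ± 15.1 at P1d and 87.7 ± 3.13 at P7d. *Idi1*, which encodes the isomerase that interconverts the C5 building blocks, changed most. It stood at 17.73, 19.09 and 16.71 FPKM in the E18.5d hearts, at 5.12, 5.90 and 10.61 in the P1d hearts and at 4.75, 5.59 and 5.92 in the P7d hearts. No postnatal heart reached the embryonic range, and P1d replicate 3 stood apart from the other two of its stage. The log2 change of *Idi1* was -1.25 ± 0.20 (SE) at P1d and -1.56 ± 0.20 at P7d (limma, adjusted p = 0.000922 and 0.00025).

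*Fdps*, which encodes farnesyl diphosphate synthase, stood at 44.23, 51.15 and 41.26 FPKM at E18.5d. It was at 18.80, 22.77 and 27.44 FPKM at P1d and at 21.49, 22.12 and 20.58 at P7d, so its postnatal hearts were all well below the embryonic ones. Its log2 change was -0.97 ± 0.12 at P1d and -1.05 ± 0.12 at P7d (limma, adjusted p = 0.000261 and 0.000145). About 26.7% of its exon bases lie within exons of *Gm43738*, which was listed at 0 in every heart. *Hmgcs1*, the cytosolic synthase that joins acetyl-CoA and acetoacetyl-CoA ahead of the rate-limiting reduction, was the most abundant sterol enzyme gene measured here at E18.5d. Its hearts held 47.36, 55.90 and 43.63 FPKM at E18.5d, 30.01, 26.01 and 39.40 at P1d, and 30.83, 33.41 and 30.17 at P7d. Its P1d hearts spread more widely than its P7d hearts but did not reach the E18.5d ones. Both log2 changes from E18.5d were -0.62 ± 0.14 (limma, adjusted p = 0.00573 at P1d and 0.00547 at P7d).

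The remaining mevalonate genes moved less. *Acat2*, the cytosolic thiolase that opens the route, was at 7.16 ± 1.00 FPKM (SD, n = 3) before birth. It fell to 5.25 ± 0.809 at P1d and 4.24 ± 0.292 at P7d. However, 39.1% of its 50-base sequences also occur in *Acat3* or, on the other strand, in *Tcp1*. *Acat3* did not exceed 0.86 FPKM in any heart, and *Tcp1* had means of 150, 121 and 97.7 FPKM at E18.5d, P1d and P7d. The part of *Tcp1* in the level of *Acat2* was not tested. *Mvk* and *Pmvk*, the kinases that phosphorylate mevalonate, went from 9.92 to 7.59 and 6.65 FPKM and from 21.7 to 16.6 and 15.8 FPKM. *Mvd*, the decarboxylase that forms isopentenyl diphosphate, was the only mevalonate gene that also fell between P1d and P7d, from 4.01 ± 0.207 to 2.69 ± 0.115 FPKM (log2 change -0.44 ± 0.12, limma adjusted p = 0.0131). The P1d calls of these genes rested on single hearts or settings. Without E18.5d replicate 2 the adjusted p of the P1d change was 0.0983 for *Acat2*, 0.0525 for *Mvk* and 0.145 for *Mvd*. That of *Acat2* was also 0.0673 without E18.5d replicate 1 and 0.0865 without P1d replicate 1, that of *Mvd* passed 0.05 without any 1 of the hearts except E18.5d replicate 3, and that of *Pmvk* was 0.0505 with a covariate for *Xist*. Over all alternatives the adjusted p at P1d ran from 0.00473 to 0.146 for *Acat2*, 0.00356 to 0.0797 for *Mvk*, 0.00471 to 0.102 for *Pmvk* and 0.0227 to 0.164 for *Mvd*, and that of *Mvd* between P1d and P7d from 0.00378 to 0.133.

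From squalene on, the 11 genes did not move together. At P1d compared with E18.5d, 6 were lower (*Sqle*, *Cyp51*, *Msmo1*, *Nsdhl*, *Sc5d* and *Dhcr7*), 2 were higher (*Fdft1* and *Hsd17b7*) and 3 did not pass the test (*Lss*, *Tm7sf2* and *Ebp*). At P7d, 7 were lower than at E18.5d, 1 was higher and 3 did not pass. From P1d to P7d, *Fdft1*, *Lss*, *Tm7sf2* and *Hsd17b7* were lower, none was higher and 7 did not pass. Of all tested genes, 27.6% were lower and 18.4% higher at P1d, and 36.9% and 12.5% at P7d, compared with E18.5d. Between P1d and P7d 28.6% were lower and 15.5% higher. The share of the 11 genes that was higher at P1d thus lay near that of all tested genes. The summed level of the 11 genes was 110 ± 7.31 FPKM at E18.5d (SD, n = 3), 93.8 ± 5.23 at P1d and 76.7 ± 2.43 at P7d.

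*Sqle*, which encodes squalene epoxidase, a slow step of the route, and *Msmo1*, the oxidase of the C4 methyl groups, changed most. *Sqle* was at 13.05, 13.32 and 9.82 FPKM in the E18.5d hearts, 4.95, 3.19 and 6.87 at P1d and 4.17, 4.76 and 4.77 at P7d. *Msmo1* was at 17.70, 19.33 and 16.47 FPKM, then 8.83, 6.97 and 11.26, then 6.58, 7.61 and 7.27. Neither gene's postnatal hearts overlapped with its embryonic hearts, and in both the P1d hearts spread more than the P7d hearts. The log2 changes at P1d and P7d were -1.16 ± 0.20 and -1.22 ± 0.20 for *Sqle* (limma, adjusted p = 0.00148 and 0.00099) and -0.93 ± 0.14 and -1.21 ± 0.14 for *Msmo1* (0.000604 and 0.000123). *Cyp51*, the lanosterol demethylase, went from 12.7 to 7.96 and 6.85 FPKM, and *Nsdhl*, the dehydrogenase of C4 demethylation, from 9.36 to 5.98 at P1d, with 4.68, 5.46 and 4.86 in the P7d hearts. The late enzymes moved less. *Sc5d*, the desaturase near the end of the route, went from 8.39 to 5.51 and 6.07 FPKM, and *Dhcr7*, the last reductase of one branch, from 10.5 to 8.24 and 8.21. The P7d call of *Dhcr7* was lost with the median of ratios (adjusted p = 0.145, over all alternatives 0.00722 to 0.216). *Ebp*, the sterol isomerase, had means of 10.2, 8.25 and 8.34 FPKM with overlapping hearts. *Ebp* and *Nsdhl* lie on the X chromosome, and the stages held unequal numbers of hearts with *Xist*.

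*Hsd17b7*, the ketosteroid reductase that works beside *Msmo1* and *Nsdhl* in C4 demethylation, went the other way. It stood at 12.56, 11.16 and 12.99 FPKM at E18.5d, 22.24, 22.88 and 22.55 at P1d and 20.89, 17.12 and 16.26 at P7d. Every postnatal heart lay above every embryonic heart. This was a log2 change of 0.83 ± 0.09 at P1d and 0.52 ± 0.09 at P7d (limma, adjusted p = 0.000117 and 0.00149), and the fall of 0.31 ± 0.09 between P1d and P7d (adjusted p = 0.023) was lost under 9 of 21 alternatives, among them those without P1d replicate 2 (0.0534), P7d replicate 2 (0.0777) and P7d replicate 3 (0.086), with a range of 0.00459 to 0.576. None of the 50-base sequences of *Hsd17b7* occurred in another gene.

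*Fdft1*, which encodes squalene synthase, and *Lss*, the cyclase that forms lanosterol, were not lower at P1d. *Fdft1* stood at 10.80, 11.58 and 9.92 FPKM at E18.5d, 13.16, 17.15 and 14.12 at P1d and 9.33, 9.26 and 8.22 at P7d. Its P1d hearts were all above those of both other stages. The log2 change was 0.42 ± 0.10 at P1d (limma, adjusted p = 0.00795) and -0.66 ± 0.10 from P1d to P7d (0.000796), and with a covariate for *Xist* the first had an adjusted p of 0.0643 (range over the alternatives 0.00282 to 0.292). However, 18.3% of its exon bases lie within exons of *Ctsb* on the other strand, and *Ctsb* stood at 45.2, 51.2 and 56.0 FPKM in the 3 stages. *Lss* was at 2.95, 3.38 and 3.15 FPKM, then 3.55, 3.08 and 4.22, then 1.63, 1.48 and 1.41. Its P7d hearts were at less than any other, and the log2 change was -0.73 ± 0.11 from E18.5d and -0.87 ± 0.11 from P1d (limma, adjusted p = 0.000501 and 0.000245). *Tm7sf2*, a sterol reductase gene, was low throughout, at 2.49, 2.80 and 1.97 FPKM. Its fall between P1d and P7d had an adjusted p of 0.0168 (limma, 0.0084 to 0.257 over the alternatives). However, 12.1% of its exon bases lie within exons of *Vps51* on the same strand, which had means of 12.5, 21.5 and 15.1 FPKM in the 3 stages. The part of *Vps51* in the level of *Tm7sf2* was not tested.

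The promoter windows of 27 of the 34 genes, 35 windows in all, were found among the RefSeq promoters of GRCm38.p6, each from 250 bases before to 50 bases after a transcript start. The letters TCACNCCA, a form of the sterol regulatory element, were searched on both strands and found in 3 of the 35 windows (8.57%), those of *Hmgcs1*, *Msmo1* and *Srebf2*, and in 4.36% of all 32851 windows. CCAAT, the box bound by NF-Y, was in 22 windows (62.9%, against 37.4% of all), and GGGCGG, a GC box, in 25 (71.4%, against 35.7%). The last letters of the first motif are also the first of CCAAT, so that these motifs can share bases. The stretches below run from 200 to 101 bases before the start and are given 5′ to 3′ on the gene's strand. They show 2 genes that were lower after birth and hold the first motif, *Hmgcs1* at chr13:119690151-119690250 (plus strand) and *Srebf2* at chr15:82147069-82147168 (plus strand), beside *Hsd17b7* at chr1:169969306-169969405 (minus strand), which was higher and does not hold it. Capitals mark TCACNCCA and CCAAT, the latter on the other strand, where it reads ATTGG.
Hmgcs1: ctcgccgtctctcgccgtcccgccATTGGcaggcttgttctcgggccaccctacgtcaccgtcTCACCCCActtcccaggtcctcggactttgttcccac
Srebf2: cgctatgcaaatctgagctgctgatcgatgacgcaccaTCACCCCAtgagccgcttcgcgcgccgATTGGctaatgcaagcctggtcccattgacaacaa
Hsd17b7: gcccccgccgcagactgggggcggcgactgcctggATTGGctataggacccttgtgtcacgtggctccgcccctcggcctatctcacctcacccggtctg

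The stretches of *Hmgcs1* and *Srebf2* hold both capitalised motifs. That of *Hsd17b7* holds CCAAT and, not capitalised, GGGCGG on either strand. Only 3 of the 27 matched genes hold TCACNCCA, so most matched genes that were lower after birth lack it as *Hsd17b7* does. Among these are *Idi1*, *Cyp51*, *Nsdhl* and *Acaca*. The relation of this motif to the direction of change was not tested. A match describes letters in the window and is not a measured binding site.

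Of the 6 genes of SREBP control and sterol sensing, 3 were lower at P1d than at E18.5d, 1 was higher and 2 did not pass the test. At P7d 4 were lower than at E18.5d and none was higher. Of all tested genes, 27.6% were lower and 18.4% higher at P1d, and 36.9% and 12.5% at P7d. *Srebf2*, whose product mainly drives sterol genes, stood at 16.11, 18.34 and 15.38 FPKM at E18.5d, 9.29, 10.05 and 11.26 at P1d and 9.19, 10.89 and 10.58 at P7d. Its postnatal hearts all lay below its embryonic hearts, and those of P1d and P7d overlapped. The log2 change was -0.65 ± 0.10 at both ages (limma, adjusted p = 0.000539 and 0.000504). *Srebf1*, whose products drive fatty acid genes more strongly, was at 19.06, 20.83 and 17.66 FPKM, then 14.63, 20.39 and 13.56, then 16.11, 13.19 and 14.35. P1d replicate 2 was within the embryonic range. The change of *Srebf1* was -0.25 ± 0.14 at P1d (adjusted p = 0.169) and -0.38 ± 0.14 at P7d (limma, adjusted p = 0.0459), and the latter was lost under 12 of 21 alternatives (0.00708 to 0.506), including those without any 1 of the E18.5d hearts, P1d replicate 1, P7d replicate 2 or P7d replicate 3. Without P1d replicate 2, the P1d change was -0.42 with an adjusted p of 0.00988 (range over the alternatives 0.00988 to 0.44). The ratio of *Srebf1* to *Srebf2* within a heart was 1.16 ± 0.0245 (SD, n = 3) before birth, 1.60 ± 0.413 at P1d and 1.44 ± 0.28 at P7d. It was higher in all postnatal hearts than in any embryonic heart, with an exact two-sided permutation p of 0.1 at either age, the smallest that 3 hearts against 3 allow.

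*Stard4*, a sterol carrier and SREBP target, was lowest at P1d. It stood at 10.07, 9.63 and 9.48 FPKM at E18.5d, fell to 3.26, 3.75 and 4.90 at P1d and stood at 6.36, 6.57 and 5.98 at P7d, with no overlap between any 2 stages. Its log2 change was -1.12 ± 0.11 at P1d and 0.57 ± 0.11 between P1d and P7d (limma, adjusted p = 5.74e-05 and 0.00292). *Scap*, the escort of the SREBPs, rose from 9.87, 10.54 and 8.88 FPKM to 13.16, 15.58 and 12.43 at P1d, a log2 change of 0.45 ± 0.11 (adjusted p = 0.00679), and was at 10.36, 12.81 and 11.03 at P7d. An antisense transcript covers 13.2% of its exon bases and was at 0.33 FPKM or less in every heart. *Insig1*, a retention factor and itself an SREBP target, stood at 14.24, 17.96 and 12.54 FPKM at E18.5d, 10.75, 9.53 and 12.74 at P1d and 11.07, 10.10 and 10.23 at P7d, with overlap between the first 2 stages. Both of its calls were lost without E18.5d replicate 2 (adjusted p = 0.105 at P1d and 0.0546 at P7d, over the alternatives 0.0138 to 0.105 and 0.00923 to 0.171), the first also without E18.5d replicate 1, P1d replicate 1 or P1d replicate 2 and the second also without P7d replicate 2. *Insig2*, its relative, had means of 16.2, 14.8 and 15.8 FPKM with overlapping hearts. The ratio of *Insig1* to *Insig2* was 0.951 ± 0.318, 0.751 ± 0.077 and 0.665 ± 0.0349 (SD, n = 3), and its exact two-sided permutation p was 0.4 at P1d and 0.1 at P7d compared with E18.5d.

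The 3 genes that lead from citrate to palmitate were all lower at P7d than at both earlier stages, and *Acaca* was already lower at P1d. *Acaca*, which encodes the cytosolic acetyl-CoA carboxylase, stood at 26.50, 25.21 and 25.32 FPKM at E18.5d, 16.31, 14.32 and 19.80 at P1d and 14.35, 10.60 and 12.96 at P7d. Its embryonic hearts lay close together and above all others. The log2 change was -0.59 ± 0.12 at P1d and -0.98 ± 0.12 at P7d (limma, adjusted p = 0.00388 and 0.000223). Of its 50-base sequences, 30.4% also occur in other genes, mainly the gene model *Gm5182*.

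*Fasn*, the fatty acid synthase, was at 40.56, 46.79 and 40.03 FPKM at E18.5d, 36.00, 41.74 and 47.65 at P1d and 30.17, 34.31 and 32.19 at P7d. The first 2 stages overlapped, and the P7d hearts were below both. *Acly*, the ATP citrate lyase, was at 37.57, 36.31 and 32.33 FPKM, then 39.45, 40.81 and 38.46, then 30.79, 31.15 and 31.27. Its P1d hearts were the highest, although the log2 change of 0.16 ± 0.06 from E18.5d missed the threshold (limma, adjusted p = 0.0673). From P1d to P7d the log2 change was -0.36 ± 0.10 for *Fasn* and -0.34 ± 0.06 for *Acly* (adjusted p = 0.0199 and 0.00241), and from E18.5d to P7d -0.39 ± 0.10 and -0.18 ± 0.06 (0.0126 and 0.0402). With the median of ratios the P7d changes from E18.5d were -0.21 for *Fasn* (adjusted p = 0.14, over the alternatives 0.00461 to 0.174, and 0.0515 without E18.5d replicate 2) and 0.00 for *Acly* (0.968, over the alternatives 0.0103 to 0.968), and the call of *Acly* was also lost without any 1 of the P7d hearts, E18.5d replicates 1 or 2 or P1d replicate 1. With columns scaled to an equal sum the fall of *Acly* between P1d and P7d was also lost (0.122, over the alternatives 0.00135 to 0.13). The falls of *Acaca* and *Fasn* between P1d and P7d were lost with the median of ratios (adjusted p = 0.094 and 0.0841), without P1d replicate 3 (0.0929 and 0.0554) and without P7d replicate 3 (0.0613 and 0.0517), that of *Acaca* also without P1d replicate 1 (0.0623) or P7d replicate 2 (0.112) and that of *Fasn* without P7d replicate 1 (0.0685), with ranges of 0.0139 to 0.55 and 0.00664 to 0.198.

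The stearoyl-CoA desaturases, which place the first double bond in saturated fatty acids, included *Scd4*, with the largest rise of the 34 genes from E18.5d, and *Scd2*, with the largest fall from E18.5d to P7d. The genes lie side by side on chromosome 19 (GRCm38), *Scd2* at chr19:44293674-44306864 and *Scd4* at chr19:44333092-44346743 on the plus strand and *Scd1* at chr19:44394455-44407879 on the minus strand. *Scd2* stood at 170.57, 190.80 and 161.45 FPKM at E18.5d, 74.46, 76.24 and 90.38 at P1d and 52.29, 48.82 and 44.22 at P7d. It fell at each age without overlap. *Scd4* stood at 3.98, 3.77 and 3.26 FPKM at E18.5d, 46.53, 36.69 and 30.65 at P1d and 52.05, 53.09 and 50.22 at P7d, a rise that also left no overlap between any 2 stages.

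For *Scd2* the log2 change was -1.11 ± 0.10 at P1d and -1.83 ± 0.10 at P7d compared with E18.5d (limma, adjusted p = 2.78e-05 and 1.19e-06), a 2.17-fold and a 3.60-fold lower mean FPKM. For *Scd4* it was 3.04 ± 0.13 and 3.50 ± 0.13 (adjusted p = 9.33e-07 and 2e-07), a 10.3-fold and a 14.1-fold higher mean. These 4 calls held under every alternative, including the fit without the hearts with *Xist* (for *Scd4* 3.01 and 3.48, for *Scd2* -1.24 and -1.85). From P1d to P7d the log2 changes were -0.72 ± 0.10 for *Scd2* and 0.46 ± 0.13 for *Scd4* (limma, adjusted p = 0.000389 and 0.0176), and the latter call was lost without P7d replicate 2 (0.0557) and with the *Xist* covariate (0.0618), with a range over the alternatives of 0.00196 to 0.288. *Scd1* was low throughout, at 4.49 ± 0.676, 3.96 ± 0.972 and 2.83 ± 0.176 FPKM (SD, n = 3), and its P7d level was below that of E18.5d (limma, adjusted p = 0.0166, range 0.00444 to 0.263, 0.0654 without E18.5d replicate 2 and 0.0536 without P7d replicate 3). The genes share 3.97% to 5.54% of their 50-base sequences, and *Scd3* did not exceed 0.05 FPKM in any heart.

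**Figure D4:**
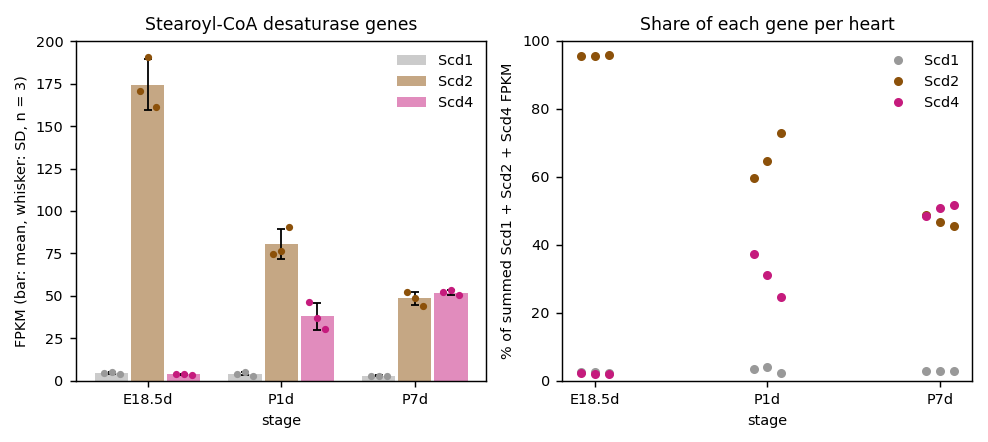
Left, FPKM of *Scd1*, *Scd2* and *Scd4* by stage (bar, mean; whisker, SD; points, 3 hearts). Right, share (%) of each gene in their summed FPKM in each heart. *Scd2* held 95.5% of the sum at E18.5d and 47.0% at P7d, where *Scd4* held 50.3%.

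The summed level of the desaturases was 182 ± 15.9 FPKM at E18.5d (SD, n = 3), 122 ± 3.93 at P1d and 103 ± 5.33 at P7d. Within a heart *Scd4* made up 2.23%, 1.89% and 1.93% of this sum at E18.5d, 37.2%, 31.15% and 24.7% at P1d and 48.5%, 50.6% and 51.7% at P7d. These shares do not depend on the scale of a column, and no heart of one stage overlapped with another stage. The differences were 29.0 percentage points at P1d and 48.3 at P7d compared with E18.5d, and 19.3 between P1d and P7d (exact two-sided permutation p = 0.1 each, the smallest possible with 3 against 3). The summed level of the adipocyte markers, mainly *Cidea*, was also higher at P1d and P7d than at E18.5d, as given above. Between P1d and P7d *Adipoq* and *Pck1* fell while *Cidea* and *Ucp1* rose. The part of adipocytes in the level of *Scd4* was not tested.

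All 4 elongase and polyunsaturated desaturase genes were lower at P1d than at E18.5d, 3 were lower at P7d, and none differed by the test between P1d and P7d. Of all tested genes, 27.6% and 36.9% were lower at P1d and P7d than at E18.5d, and 44.2% differed between P1d and P7d. *Elovl6*, which lengthens palmitate to stearate, stood at 2.51, 2.82 and 2.78 FPKM at E18.5d, 0.68, 1.29 and 1.19 at P1d and 0.91, 0.90 and 0.95 at P7d. Its postnatal hearts held less than any embryonic heart. The log2 change was -0.86 ± 0.13 at P1d and -0.95 ± 0.13 at P7d (limma, adjusted p = 0.000644 and 0.000353). *Elovl5*, which lengthens polyunsaturated chains, moved little, with means of 24.6, 21.7 and 22.4 FPKM, and its P1d call (adjusted p = 0.0276) was lost under 9 of 21 alternatives (0.0172 to 0.41), including those without any 1 of the E18.5d hearts or P1d replicate 1. The ratio of *Elovl6* to *Elovl5* went from 0.110 ± 0.00927 (SD, n = 3) before birth to 0.0483 ± 0.0135 at P1d and 0.0411 ± 0.000244 at P7d. Neither postnatal stage overlapped with E18.5d in this ratio (exact two-sided permutation p = 0.1 for each, the smallest possible). The P1d and P7d hearts overlapped with each other (exact two-sided permutation p = 0.4).

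*Fads1* and *Fads2*, neighbours on chromosome 19 that encode the front-end desaturases of polyunsaturated fatty acids, fell side by side. *Fads1* was at 18.52, 20.21 and 17.10 FPKM at E18.5d, 11.45, 13.65 and 13.12 at P1d and 13.44, 14.67 and 14.59 at P7d. *Fads2* was at 15.82, 16.52 and 15.09, then 9.06, 11.45 and 8.54, then 11.67, 11.92 and 10.36. In both the postnatal hearts were all below the embryonic ones. The log2 changes at P1d were -0.51 ± 0.08 and -0.66 ± 0.10 (limma, adjusted p = 0.00104 and 0.000717) and at P7d -0.36 ± 0.08 and -0.45 ± 0.10 (0.00615 and 0.00543), and the P7d call of *Fads1* was lost with the median of ratios (0.0899, range 0.00446 to 0.157). The ratio of *Fads2* to *Fads1* was 0.851 ± 0.0326, 0.760 ± 0.0977 and 0.797 ± 0.0803 (SD, n = 3), with overlapping hearts at each comparison (exact two-sided permutation p of 0.2 at P1d and 0.4 at P7d compared with E18.5d).

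The hearts of a stage also differed in these genes. Of the 18 sterol enzyme genes, 15 were highest in replicate 2 and 14 lowest in replicate 3 of the E18.5d hearts, and 12 were highest in replicate 3 of the P1d hearts (83.3%, 77.8% and 66.7%). The same hearts held the highest, lowest and highest value of 36.0%, 44.3% and 31.8% of all tested genes. Their summed level was 265, 291 and 242 FPKM in the E18.5d hearts, 174, 181 and 212 at P1d and 163, 169 and 161 at P7d. The coefficient of variation of this sum was 9.07%, 10.6% and 2.64% in the 3 stages. The sum in the highest P1d heart was below that in the lowest embryonic heart. E18.5d replicate 2 was the heart of its stage with *Xist* at 0.08 FPKM, and it held the most *Scgb3a2* of that stage. The part of either in these differences was not tested.

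Other genes of the sterol side, a list of 52 that holds further isoprenoid and sterol enzymes, SREBP processing, transport, storage and efflux, was split in direction at P1d. Of the 49 tested, 13 were higher and 11 lower at P1d than at E18.5d, 5 higher and 14 lower at P7d, and 4 higher and 20 lower at P7d than at P1d, with median log2 changes of 0.03, -0.15 and -0.17. These are 26.5% and 22.4%, 10.2% and 28.6%, and 8.16% and 40.8% of the list, where 18.4% and 27.6%, 12.5% and 36.9%, and 15.5% and 28.6% of all tested genes were higher and lower. *Erg28*, a scaffold of the C4 demethylation complex, went from 11.6 to 5.96 FPKM by P7d (adjusted p = 4.72e-05). *Erlin1*, of the endoplasmic reticulum complex that degrades sterol sensors, went from 6.87 to 3.14 FPKM at P1d and 4.11 at P7d, where the rise after P1d was lost under 6 of 19 alternatives. *Aacs*, which makes acetoacetyl-CoA from acetoacetate in the cytosol, was at 3.84, 2.22 and 3.17 FPKM, and its rise after P1d (adjusted p = 0.0447) was kept in 9 of 19 alternatives.

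*Cyp27a1*, *Lpcat3* and *Npc1* were sterol-side genes that rose at P1d. *Cyp27a1*, the mitochondrial sterol hydroxylase, stood at 2.49, 3.49 and 3.36 FPKM at E18.5d, 9.18, 10.98 and 7.00 at P1d and 4.12, 4.22 and 4.50 at P7d. Its P1d hearts lay above all others (log2 change 1.28 ± 0.15 at P1d and -0.91 ± 0.15 from P1d to P7d, limma adjusted p = 0.000143 and 0.00114). *Lpcat3*, an LXR target that places polyunsaturated chains in phospholipids, went from 18.5 to 36.6 and 23.6 FPKM, and *Npc1*, which exports cholesterol from lysosomes, from 12.4 to 23.4 and 17.7. *Mylip*, an LXR target that degrades a lipoprotein receptor, did not pass the test at P1d and was at 10.78, 13.08 and 5.91 FPKM in the P1d hearts and at 5.59, 4.81 and 4.81 at P7d. Its fall between P1d and P7d (adjusted p = 0.0158) was lost without P1d replicate 1 (0.0541), without P7d replicate 2 (0.051) and with the *Xist* covariate (0.0897).

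On the fatty acid side, 29 of 36 other genes were tested, of which 8 were higher and 9 lower at P1d than at E18.5d, 6 higher and 14 lower at P7d, and 5 higher and 7 lower at P7d than at P1d. These are 27.6% and 31.0%, 20.7% and 48.3%, and 17.2% and 24.1% of the genes tested, the last pair and the lower share at P1d lying near those of all tested genes given above. *Mlycd* and *Acacb*, which act on malonyl-CoA for the control of oxidation, were higher after birth while *Acaca* was lower. *Mlycd*, which encodes malonyl-CoA decarboxylase, rose from 10.57, 10.74 and 10.30 FPKM at E18.5d to 53.44, 49.82 and 36.56 at P1d and 42.50, 38.67 and 40.38 at P7d. *Acacb*, the carboxylase at the mitochondrial surface, rose from 20.95, 22.20 and 22.39 FPKM to 55.45, 50.05 and 45.26 and 51.17, 50.79 and 50.27. Neither gene's postnatal hearts overlapped with the embryonic ones (log2 change at P1d 2.03 ± 0.12 and 1.16 ± 0.07, limma adjusted p = 3.7e-06 and 4.84e-06). At E18.5d *Acaca* was at 25.7 FPKM and *Acacb* at 21.8, and at P7d they were at 12.6 and 50.7.

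*Mlxipl*, the glucose-responsive activator ChREBP, and *Thrsp*, a lipogenic target, stayed low but rose, from 0.78 to 2.31 and 4.12 FPKM and from 0.653 to 1.46 and 2.50. The rise of *Mlxipl* between P1d and P7d (adjusted p = 0.0313) was kept in 12 of 19 alternatives. *Hsd17b12* and *Hacd2*, which reduce and dehydrate the elongating chain, fell from 27.6 to 16.1 and 15.7 FPKM and from 3.64 to 2.25 at both ages, and *Fads3*, a relative of *Fads1* and *Fads2*, from 23.4 to 15.1 at P1d. *Hacd4*, a further dehydratase gene, and *Mcat*, the malonyltransferase of mitochondrial fatty acid synthesis, fell between P1d and P7d, from 4.34 to 2.40 and from 13.5 to 9.22 FPKM (adjusted p = 0.00357 and 0.00105).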

How the data were processed

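The authors deposited FPKM values of 48820 genes in 1 table with a column for each of the 9 hearts, and every column matched a sample. Libraries were made from 2 µg of total RNA with a NEBNext Ultra kit. The submitters' processing notes name STAR, GRCm38 and mm10, and the counting tool, the annotation and the use of strand are not given in the sources used here. Identifiers were matched to GENCODE M21 of GRCm38 (48058 matched).

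Values were transformed to log2(FPKM + 1), and the 13618 genes whose mean over all hearts reached 1 FPKM entered 1 linear model of the 3 stages in limma 3.58.1 (R 4.3.3, with eBayes and a trend in the variance), with Benjamini-Hochberg adjustment over these genes and a threshold of 0.05. All 34 genes passed the filter. Shares and ratios within a heart were compared with exact two-sided permutation tests (Python 3.11.15, scipy 1.17.1). P-values measure the spread between hearts labelled as biological replicates.

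Depth was read from the spacing of low FPKM values (80.8% to 85.3% whole, against 15.9% to 20.0% by chance) and covers counting precision only. In simulated data of 13618 genes with 200 changed by a log2 of 1 at P7d, 184 (92%) and 186 (93%) were called against E18.5d and P1d, with 19 and 5 unchanged genes called. The noise was drawn independently for each gene, so hearts in which many genes deviate together were not simulated. Far more genes were called in the data than were changed in the simulation, so these rates hold for its setting only. Shared sequence was counted as 50-base stretches of a gene's transcripts that occur in another gene.

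The members, their grouping by role and the 2 surrounding lists were chosen with earlier results of these data known. All 34 members are named, and of each list and comparison the 2 genes with the largest change in each direction among called genes whose hearts did not overlap, of which 1 is not reported here. Alternatives were another pseudocount (0.1), filters, scalings, variance prior, the stages compared alone, a replicate block, a required log2 change of 1, *Xist* as covariate or exclusion, and leaving out each heart.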

Additional observations from a re-analysis of the deposited data

How the results depend on the processing

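The direction of each of the 26, 28 and 11 calls (P1d compared with E18.5d, P7d compared with E18.5d, P7d compared with P1d) held under every alternative, and the adjusted threshold was also kept by 19, 21 and 4 of them in all alternatives except the removal of the hearts with *Xist*. With no counts deposited, depth is known only from the spacing of values, and 3 hearts per stage limit the exact tests to a p of 0.1. The replicate numbers did not pair the hearts (correlations of same-numbered hearts -0.0546 to 0.112), and with the replicate block 4 genes were higher and 20 lower, 3 and 27, and 2 and 11. The causes of the shifts below were not tested.

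With a log2 change of at least 1 also required, 1 gene was higher and 4 lower at P1d, 1 and 5 at P7d compared with E18.5d, and 0 and 0 between P1d and P7d, where limma without this requirement called 2 and 9. Without the hearts with *Xist* these counts were 2 and 1, 1 and 1, and 0 and 0, fewer hearts being compared. The median log2 change at P1d was -0.533 with an equal column sum, -0.305 with quantile normalization, -0.473 with the *Xist* covariate, -0.534 without the hearts with *Xist* and -0.456 to -0.287 without 1 heart. At P7d compared with E18.5d it was -0.527 with a pseudocount of 0.1, -0.524 with an equal sum, -0.342 with an equal sum without mitochondrial, haemoglobin and small structural RNA genes, -0.318 with the median of ratios, -0.338 with quantile normalization, -0.66 without the hearts with *Xist* and -0.57 to -0.419 without 1 heart. Between P1d and P7d it was -0.0848 for genes with a mean of 5 FPKM or more, -0.0337 with an equal sum (3 lower), -0.0082 with the restricted equal sum (6 higher, 4 lower), -0.0501 with the median of ratios (6 higher), -0.068 with quantile normalization (5 higher), -0.0807 with the *Xist* covariate (1 higher, 4 lower) and -0.219 to -0.0511 without 1 heart (1 to 3 higher).

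The log2 ratio of *Srebf1* to *Srebf2* between P1d and P7d was 0.162 without the hearts with *Xist* and -0.329 to 0.047 without 1 heart. That of *Fads2* to *Fads1* was 0.0871 at P7d compared with E18.5d without the hearts with *Xist*, and -0.0367 to 0.152 between P1d and P7d without 1 heart. Under the median of ratios the sterol side split into 11 up and 9 down for P7d against E18.5d and 8 up and 13 down for P7d against P1d, and 4 genes of the fatty acid side were down for P7d against E18.5d. Of all 13618 tested genes, 2905 were up and 2848 down for P7d against E18.5d under this scaling. For P7d against P1d, 2986 were up and 2700 down.

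Genes that changed sign had not passed the test. At P1d compared with E18.5d, *Acly* was at -0.0108 with an equal sum, *Fasn* at 0.0414 with the median of ratios, 0.0004 with quantile normalization and -0.125 to 0.0728 without 1 heart, and *Insig2* at 0.0936 without the hearts with *Xist* and -0.251 to 0.0395 without 1 heart. At P7d compared with E18.5d, *Insig2* and *Elovl5* were at 0.121 and 0.0225 with the restricted equal sum, 0.145 and 0.0471 with the median of ratios and 0.12 and 0.0231 with quantile normalization. *Insig2* was at 0.35 and *Scap* at -0.0227 without the hearts with *Xist*, and *Insig2* at -0.137 to 0.0628 without 1 heart.

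Between P1d and P7d, *Pmvk*, *Fdps*, *Sqle*, *Dhcr7* and *Insig1* were at 0.0558, 0.04, 0.0365, 0.11 and 0.0591 with an equal sum, at 0.0934, 0.0781, 0.0754, 0.147 and 0.0969 with the restricted equal sum and at 0.0376, 0.0215, 0.0276, 0.094 and 0.0429 with the median of ratios. *Pmvk*, *Fdps*, *Dhcr7*, *Insig1* and *Elovl6* were at 0.037, 0.0293, 0.0666, 0.0278 and 0.0055 with quantile normalization, and *Srebf1* and *Elovl6* at 0.0315 and 0.0024 with the restricted equal sum. With the *Xist* covariate *Fdps*, *Dhcr7*, *Srebf1* and *Insig1* were at 0.0033, 0.0591, 0.0007 and 0.112. Without the hearts with *Xist*, *Hmgcs1*, *Ebp*, *Dhcr7*, *Srebf1*, *Srebf2* and *Insig1* were at -0.0231, -0.0389, 0.0104, 0.0138, -0.133 and 0.0162. Without 1 heart the ranges were -0.126 to 0.165 for *Hmgcs1*, -0.0713 to 0.19 for *Ebp*, -0.0562 to 0.0709 for *Srebf2*, -0.238 to 0.0395 for *Srebf1*, -0.0655 to 0.225 for *Insig2* and -0.222 to 0.0013 for *Elovl6*. They were -0.216 to 0.0454 for *Fdps*, -0.2997 to 0.155 for *Sqle*, -0.0377 to 0.042 for *Dhcr7*, -0.149 to 0.0429 for *Insig1* and -0.131 to 0.004 for *Pmvk*.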
